A study of Mus musculus with 6 samples.

Results

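MHC class I presentation was followed through 10 genes chosen by name: the heavy chains H2-K1 and H2-D1, their light chain B2m, the peptide transporter genes Tap1 and Tap2, the loading bridge Tapbp, the immunoproteasome genes Psmb8 and Psmb9, the trimming peptidase Erap1 and the transcriptional regulator Nlrc5. All 10 were among the 18049 genes of the table, and all 10 were among the 16670 genes tested. Colonic crypts of 3 control mice and of 3 given GSK503 were sequenced as total RNA, each mouse as its own library. Both groups were C57BL/6J mice of the same engineered line, carried Villin-Cre, which is active in the intestinal epithelium and not in immune or stromal cells, and a humanized Tgfbr2 knock-in, and ate a Western-style diet from 8 weeks of age, so genotype and diet were common to all 6 mice. Control mice received the captisol vehicle in PBS, and treated mice received 200 μg/kg GSK503, an inhibitor of the histone methyltransferase EZH2, by tail vein injection in a trial of 9 weeks; the age at harvest is not given in the sources used here.

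Class I molecules display peptides cut from a cell's own proteins to CD8+ T cells. Proteasomes produce the peptides, TAP carries them into the endoplasmic reticulum, ERAP1 shortens them, and tapasin holds TAP next to an empty heavy chain and β2-microglobulin until a peptide fits. Interferon raises most of these genes together, and NLRC5 acts with RFX, CREB/ATF and NF-Y factors on the X and Y boxes of their promoters. EZH2 deposits H3K27me3, a repressive histone mark that in some tumours silences class I genes. The crypt libraries were collected to ask which transcripts differ in colonic epithelium after EZH2 inhibition.

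The estimated total per library lay between 108162744 and 135084913 counts, so that 3 counts were worth between 0.0228 and 0.0271 on the deposited scale, and each class I gene lay far above this floor. Epithelial markers were high in every library, with a summed level of 12677 to 14181 in controls and 13601 to 16015 in treated mice and none of 8 at 0. Xist read 0.419 to 0.936 in controls and 825 to 1236 in treated mice, while Uty, Ddx3y, Kdm5d and Eif2s3y read 42.5 to 91.7 in controls and 0 to 1.08 in treated mice, so that treatment and sex cannot be told apart in any comparison here. Ezh2 itself read 46.7, 37.4 and 46.5 in controls and 36.6, 35.2 and 36.3 in treated mice (limma, adjusted p = 0.291); because GSK503 blocks the enzyme, this transcript does not check the treatment.

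The genes cluster in the genome. On GRCm39, 7 of the 10 lie in the H2 complex on chromosome 17: Tapbp at chr17:34134873-34148267, H2-K1 at chr17:34214987-34219321, Psmb9 at chr17:34400960-34406738, Tap1 at chr17:34405996-34416199, Psmb8 at chr17:34416690-34420428, Tap2 at chr17:34422501-34435829 and H2-D1 at chr17:35481691-35486475. B2m lies at chr2:121977957-121983594, Nlrc5 at chr8:95160984-95253900 and Erap1 at chr13:74787687-74841320. Psmb9 and Tap1 run in opposite directions and overlap by 743 bases, and B2m lies inside the antisense gene Patl2. The library kit keeps strand, but whether the counting used it is not given in the sources used here, so reads from such partners may be mixed.

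The sequence before the start of transcription is shown for the genes whose shared boxes are the textbook targets of NLRC5 and interferon. RefSeq promoter windows on GRCm38.p6, of 250 bases before to 50 after a start, matched 8 of the 10 members and not Tap2 or Nlrc5, and only the bases before the start are printed, 5′ to 3′ on the strand of the gene. Capitals mark a kappaB motif (GGGNNTTCCC), an interferon regulatory factor core (AANNGAAA), a CRE-like X2 box (TGACG) and a Y box (CCAAT), each on either strand. H2-K1 is read from chr17:34000348-34000597 on the minus strand, H2-D1 from chr17:35262844-35263093 on the plus strand, B2m from chr2:122147437-122147686 on the plus strand, and the bases between the Tap1 and Psmb9 starts from chr17:34187331-34187555 in the direction of Tap1.
H2-K1: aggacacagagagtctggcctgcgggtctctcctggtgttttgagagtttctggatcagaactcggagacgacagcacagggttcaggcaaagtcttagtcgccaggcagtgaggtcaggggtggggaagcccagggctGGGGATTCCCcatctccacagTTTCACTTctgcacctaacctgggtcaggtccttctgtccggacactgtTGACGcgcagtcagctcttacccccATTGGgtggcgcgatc
H2-D1: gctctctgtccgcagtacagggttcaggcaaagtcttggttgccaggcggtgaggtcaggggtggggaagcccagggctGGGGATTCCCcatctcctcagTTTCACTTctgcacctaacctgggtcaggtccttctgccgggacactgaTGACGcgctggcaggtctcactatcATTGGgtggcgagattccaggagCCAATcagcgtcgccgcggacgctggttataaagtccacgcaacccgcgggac
B2m: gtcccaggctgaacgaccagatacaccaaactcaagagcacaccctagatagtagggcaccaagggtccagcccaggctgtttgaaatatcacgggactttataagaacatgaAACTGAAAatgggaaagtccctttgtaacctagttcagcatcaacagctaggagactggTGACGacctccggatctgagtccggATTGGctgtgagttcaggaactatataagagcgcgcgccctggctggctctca
Tap1 and Psmb9: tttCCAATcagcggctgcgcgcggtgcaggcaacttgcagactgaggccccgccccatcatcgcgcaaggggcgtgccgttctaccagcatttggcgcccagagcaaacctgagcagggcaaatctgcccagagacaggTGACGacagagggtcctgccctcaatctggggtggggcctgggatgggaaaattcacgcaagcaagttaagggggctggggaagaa

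Both heavy chain promoters carried the same kappaB site, GGGGATTCCC. It began 171 bases before the start of H2-D1 and 111 bases before the H2-K1 start used for the printed sequence. From another RefSeq start of H2-K1, the same site began 125 bases before. The motif was in 1.75% of all 32851 windows of the same length. An interferon regulatory factor core was found in H2-K1, H2-D1, B2m and Erap1, and in 23.9% of all windows. In B2m and Erap1 the core lay inside a full interferon-stimulated response element (GAAANNGAAA, 3.44% of all windows), and the gamma-activated site (TTCCNNNGAA, 3.91% of all windows) was in none of the 8.

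The X2 box was in 5 of the 8 windows (H2-K1, H2-D1, B2m, Tap1 and Psmb9; 20.8% of all windows) and the Y box in those 5 and in Tapbp (37.4% of all windows). X2 and the nearest downstream Y box began 25 bases apart in H2-K1, H2-D1 and B2m alike. The core began 49 bases before X2 in both heavy chain genes and 59 bases before it in B2m. The RefSeq starts of Tap1 and Psmb9 on GRCm38.p6 lie 225 bases apart, unlike the outer ends of these genes in the GRCm39 annotation above, which overlap, and both windows hold the same X2 and Y letters. These matches describe letters only, and binding or histone marks at these promoters were not analysed here.

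The light chain and the 2 heavy chains had the highest levels per length. Values were divided by the length of the canonical GENCODE transcript and are given as TMM-scaled CPM per kb. B2m was highest at 1171 ± 52.0 in controls and 1197 ± 217 in treated mice (SD, n = 3 each). H2-K1 came next at 434 ± 37.0 in controls and 468 ± 17.3 in treated mice, then H2-D1 at 297 ± 16.9 and 318 ± 11.4. The transcript for the light chain was thus above that of either heavy chain in every mouse.

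Psmb8 followed the heavy chains at 136 ± 22.9 per kb in controls and 124 ± 12.0 in treated mice. Below it came Tapbp, Psmb9, Tap1, Erap1 and Tap2, with means over all 6 mice of 72.2, 55.4, 42.7, 32.8 and 24.8 per kb. Nlrc5, the regulator, was lowest at 8.73 ± 1.29 in controls and 8.02 ± 0.925 in treated mice. Over the 6 mice the ranges of Tapbp and Psmb9, of Psmb9 and Tap1, and of Tap1 and Erap1 overlapped, while those of every other pair of neighbours in this order did not.

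**Figure D1:**
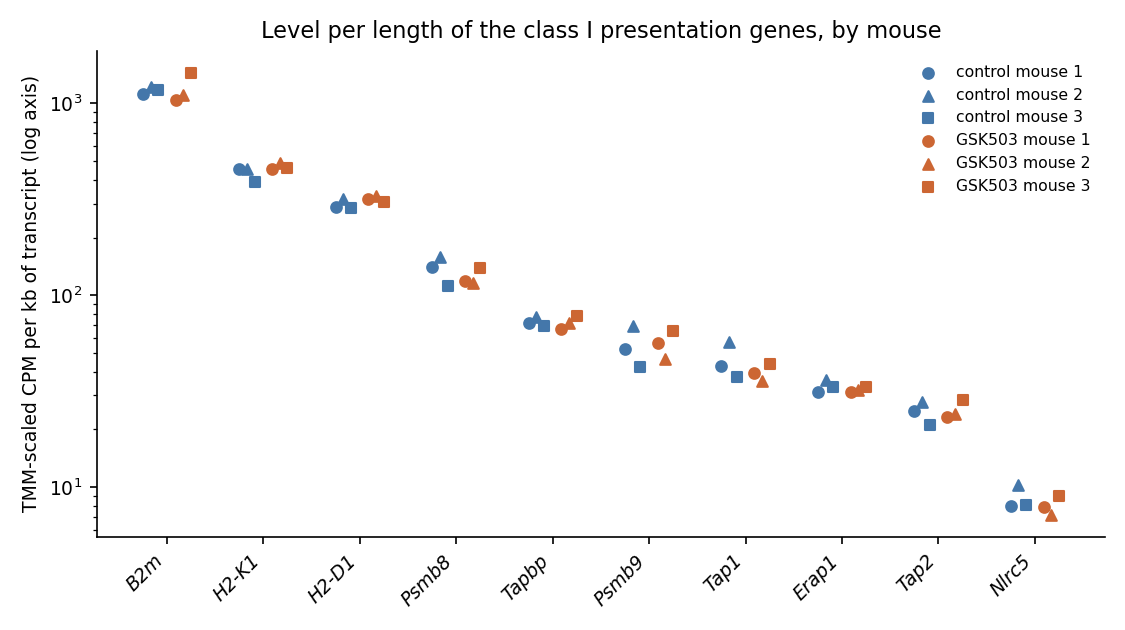
Level per length of the 10 genes in each mouse, as TMM-scaled CPM per kb of transcript on a log axis, with controls in blue and GSK503-treated mice in orange. B2m lies between 1038 and 1445 and Nlrc5 between 7.17 and 10.2, and the 2 groups overlap for all 10 genes.

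No class I presentation gene passed the test between treated and control mice. Of the 10, 5 had a log2 difference above 0 (H2-K1, H2-D1, Psmb9, Tap2 and B2m) and 5 below 0, although all 10 were below 0 when libraries were scaled by their total alone, a scaling that moved the median of all genes to -0.12 and that of the 10 genes to -0.11. The differences ran from -0.19 to 0.11, with a median of 0.00043 beside -0.0053 over all genes tested. With limma, 0 of 10 had an adjusted p below 0.05, where 0.498% of all genes tested were called higher and 0.144% lower. At an unadjusted p below 0.05 the count was also 0 of 10, where the share of all genes was 13.3%, and limma-voom gave 0 as well. The groups overlapped for all 10, where 9.84% of all genes had every treated mouse above every control and 9.22% every treated mouse below.

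On the deposited TMM scale, separate 95% intervals from limma were given to the difference between groups of each gene. They were not adjusted for the 10 genes together, so they are not joint bounds. Treatment and sex cannot be told apart in them. Intervals with libraries scaled by their total alone, where the difference of Tap1 was -0.31, are not given here. All 10 intervals included 0, and none reached a 1.5-fold change in either direction. Their upper ends lay between 1.08-fold and 1.36-fold higher, and their lower ends between 1.06-fold and 1.43-fold lower. Within a group, the highest mouse exceeded the lowest by between 1.09-fold and 1.63-fold in controls and between 1.07-fold and 1.40-fold in treated mice.

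**Figure D2:**
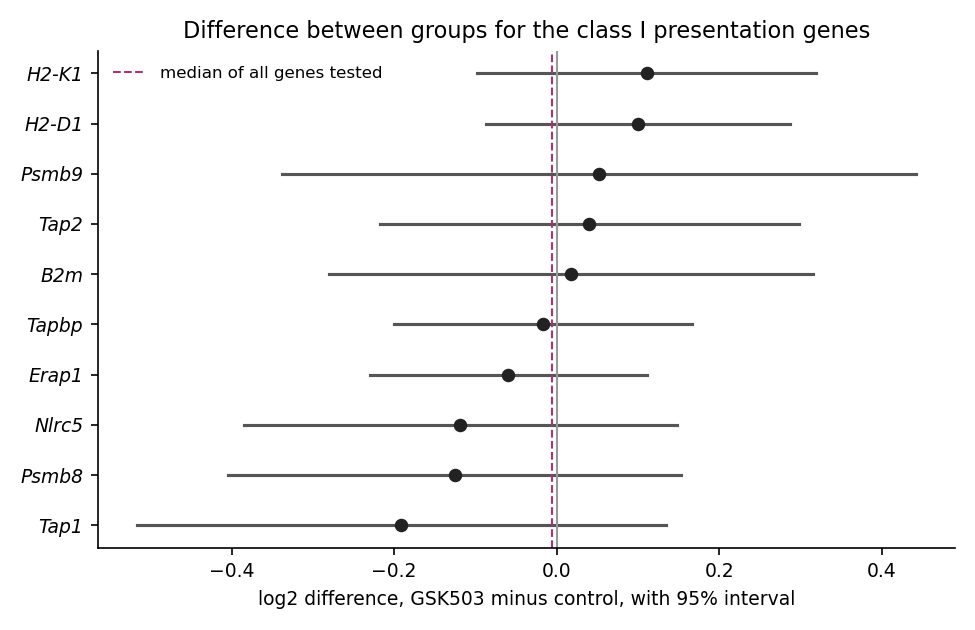
Log2 difference between GSK503-treated and control mice for each of the 10 genes on the deposited TMM scale, with the 95% interval from limma; the dashed line is the median of all genes tested. Points run from -0.19 for Tap1 to 0.11 for H2-K1 and every interval crosses 0; on the scale of library totals alone all 10 points lie below 0.

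The heavy chains and their light chain form the molecule seen at the cell surface. H2-K1, as TMM-scaled CPM of mice 1, 2 and 3 in this order, read 737, 738 and 634 in controls and 733, 788 and 751 in treated mice. Its log2 difference was 0.11 (SE 0.093, limma, adjusted p = 0.652), with an interval of the fold from 0.935 to 1.25. H2-D1 read 614, 670 and 604 in controls and 672, 699 and 651 in treated mice, a log2 difference of 0.10 (SE 0.083, adjusted p = 0.650). Both groups overlapped for each heavy chain, with control mouse 3 the lowest of the 6 for both and treated mouse 2 the highest. The sign of both turned below 0 when libraries were scaled by their total alone, to -0.0037 for H2-K1 and -0.014 for H2-D1.

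B2m read 1211, 1322 and 1282 in controls and 1128, 1204 and 1569 in treated mice. Treated mice 1 and 2 lay below every control and treated mouse 3 above every one. The log2 difference was 0.02 (SE 0.13, adjusted p = 0.970), and without treated mouse 3 it was -0.13. H2-K1, H2-D1 and the other class I heavy chains share much of their sequence, so the division of reads among them is uncertain.

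Peptide supply to these molecules runs through TAP and tapasin. Tap1, a subunit of the transporter, read 133, 178 and 116 in controls and 122, 111 and 136 in treated mice. Tap1 had the lowest log2 difference of the 10, -0.19 (SE 0.14, adjusted p = 0.615), with an interval of the fold from 0.699 to 1.10. Control mouse 2 stood above the other 5 mice and set much of this value, which was -0.02 without that mouse and -0.33 without control mouse 3. Tap2, the partner subunit, read 98.9, 110 and 83.3 in controls and 92.1, 95.3 and 113 in treated mice (log2 difference 0.04, SE 0.11, adjusted p = 0.921). Tapbp, which encodes tapasin, read 214, 229 and 205 in controls and 198, 212 and 231 in treated mice (log2 difference -0.02, SE 0.082, adjusted p = 0.954). Treated mouse 3 was the highest of all 6 for both Tap2 and Tapbp.

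The immunoproteasome subunits replace the constitutive catalytic subunits when interferon acts on a cell. Psmb8 read 237, 268 and 191 in controls and 203, 196 and 235 in treated mice, a log2 difference of -0.13 (SE 0.12, adjusted p = 0.715). Psmb9 read 70.7, 93.6 and 57.4 in controls and 75.9, 63.1 and 88.5 in treated mice, a log2 difference of 0.05 (SE 0.17, adjusted p = 0.934). Psmb9 had the widest interval of the 10, from a fold of 0.791 to 1.36, and its controls alone spanned 1.63-fold. Control mouse 2 was the highest and control mouse 3 the lowest of the 6 for both subunits.

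Erap1, the peptidase that trims peptides in the endoplasmic reticulum, read 177, 204 and 186 in controls and 176, 180 and 188 in treated mice. Its log2 difference of -0.06 (SE 0.076, adjusted p = 0.790) had the smallest standard error of the 10. Nlrc5, which switches on class I genes, read 60.2, 77.4 and 60.9 in controls and 59.8, 54.3 and 68.2 in treated mice (log2 difference -0.12, SE 0.12, adjusted p = 0.718). Without control mouse 2 the difference of Nlrc5 was -0.00077. Erap1 and Nlrc5 were both highest in control mouse 2.

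The spread of the 10 genes lay between mice of the same group. Each gene was centred on its own mean over the 6 mice on the log2 scale, and the 10 centred values were averaged in each mouse. In the order of mice 1, 2 and 3, these averages came to -0.02, 0.19 and -0.14 for controls and to -0.07, -0.08 and 0.12 after GSK503. All 10 genes were above their own mean in control mouse 2 and all 10 in treated mouse 3, against 2 of 10 in control mouse 3 and 2 of 10 in treated mouse 2. Among the controls, mouse 2 was the highest for all 10 genes, and among the treated mice, mouse 3 was the highest for 8 of 10, with H2-K1 and H2-D1 highest in mouse 2.

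**Figure D3:**
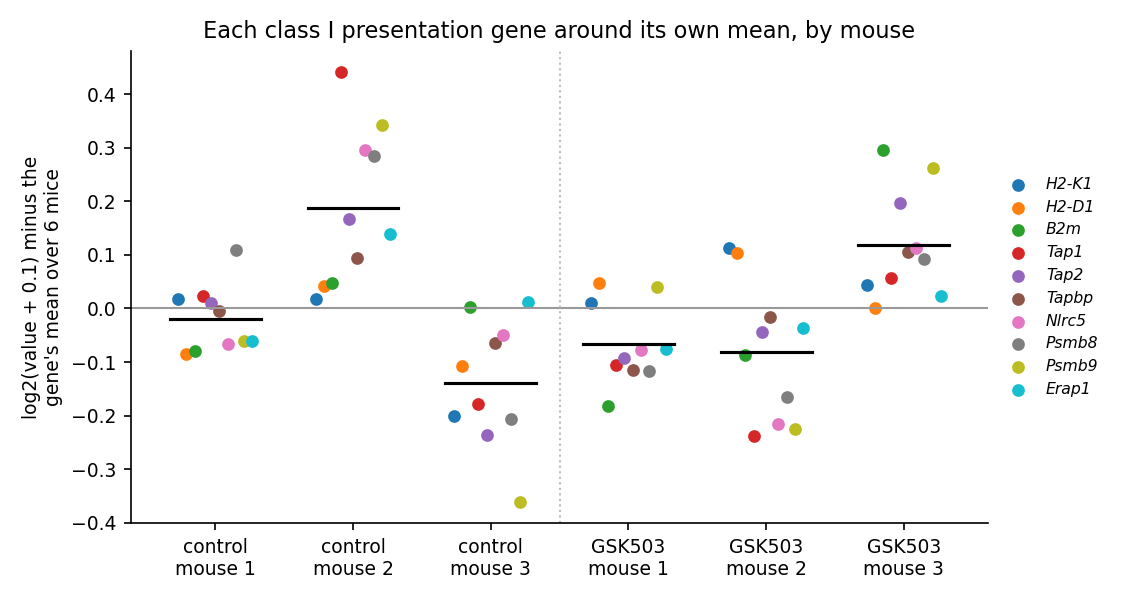
Each gene's log2(value + 0.1) minus its own mean over the 6 mice, by mouse; dots are the 10 genes and black bars their average in that mouse. Every gene lies above its own mean in control mouse 2 (average 0.19) and in treated mouse 3 (average 0.12).

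The same mice carried the most RNA of some cell types other than epithelium. The summed level of 6 smooth muscle markers was 20.9, 90.1 and 46.2 in controls and 4.52, 4.26 and 122 in treated mice. B cell markers (6 genes) summed to 33.4, 75.0 and 22 in controls and to 3.66, 1.95 and 61.4 in treated mice, where Jchain made up 57.9 of the 61.4. Macrophage markers (9 genes) summed to 105, 150 and 125 in controls and 70.6, 72.7 and 133 in treated mice, and fibroblast markers (6 genes) to 60.2, 77.1 and 61.7 in controls and 25.1, 33.8 and 113 in treated mice. By these sums, control mouse 2 led the controls and treated mouse 3 the treated mice on all 4 lists. Not every single marker followed its sum. Cd14, the highest of the 9 macrophage markers in every mouse, read 60.6, 75.0 and 77.3 in controls and 52.1, 54.1 and 49.2 in treated mice. The part of these cell types in the class I values was not tested. In bulk tissue, fewer cells of a type and less RNA per cell cannot be told apart.

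T cell markers did not follow that order. The 9 genes, among them Cd3e and Cd8a, summed to 25.1, 17.7 and 19.4 in controls and 15.8, 20.0 and 20.6 in treated mice, and the leukocyte marker Ptprc read 21.98, 18.3 and 17.9 in controls and 14.5, 15.1 and 15.9 in treated mice. Dendritic cell markers (6 genes) summed to 3.235, 3.55 and 3.89 in controls and 2.87, 3.47 and 5.19 in treated mice. Clec9a and Batf3 were at 0 in at least 1 library each. Endothelial markers (5 genes) summed to 6.01, 5.59 and 3.45 in controls and 1.87, 2.35 and 7.95 in treated mice. Treated mouse 3 led the treated mice on both lists, while control mouse 2 led the controls on neither. Among the B cell and fibroblast markers, Cd79a and Lum were each at 0 in 1 treated mouse. Of the 47 tested markers of cell types other than epithelium, limma and limma-voom called 0. At an unadjusted p below 0.05, 9 were lower and 0 higher in treated mice (13.3% of all genes in both directions). Without treated mouse 3, limma called 11 of the 47, all lower in treated mice, where 0.624% of all genes were then called lower and 0.75% higher.

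Without treated mouse 3, 8 of the 10 class I genes had a log2 difference below 0, with a median of -0.08 and a range from -0.27 to 0.13. Without control mouse 2, 6 were above 0, with a range from -0.02 to 0.24. Without control mouse 3, Tap1 and Psmb8 reached an unadjusted p below 0.05, and the smallest adjusted p over the 10 was 0.355. In none of these fits did a class I gene have an adjusted p below 0.05 with limma.

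Ratios of 2 genes within a mouse do not depend on how libraries were scaled. They are given here as log2 ratios without correction for length, so that they compare mice and not genes. Psmb8 over Psmb5, the constitutive subunit it replaces, was 2.15, 2.41 and 2.06 in controls and 1.72, 1.65 and 2.46 in treated mice. Psmb9 over Psmb6 was -1.08, -0.67 and -1.08 in controls and -1.15, -1.42 and -0.65 in treated mice. Psmb10 over Psmb7 was 1.15, 1.34 and 1.03 in controls and 1.08, 0.93 and 1.36 in treated mice. For all 3 immunoproteasome ratios the groups overlapped, and treated mouse 3 was the highest mouse and treated mouse 2 the lowest.

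Among the treated mice, Psmb8 over Psmb5 therefore differed by up to 0.81 on the log2 scale between mouse 2 and mouse 3, against 0.36 among the controls. The difference in means between groups was -0.26 for Psmb8 over Psmb5, -0.13 for Psmb9 over Psmb6 and -0.05 for Psmb10 over Psmb7. In exact two-sided permutation tests, for which the smallest p with 3 against 3 mice is 0.1, p was 0.4, 0.6 and 0.8.

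The transporter ratio Tap1 over Tap2 was 0.43, 0.69 and 0.47 in controls and 0.40, 0.22 and 0.27 in treated mice. It was the only 1 of the 6 ratios whose groups did not overlap, though treated mouse 1 and control mouse 1 lay only 0.03 apart. The difference in means was -0.23 (SE 0.097), with the smallest p the exact permutation test allows, 0.1, and 0.6 after Benjamini-Hochberg adjustment over the 6 ratios. With any single mouse left out it stayed between -0.28 and -0.15.

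H2-D1 over H2-K1 was -0.26, -0.14 and -0.07 in controls and -0.13, -0.17 and -0.21 in treated mice (difference in means -0.01, exact permutation p = 1). H2-K1 over B2m was -0.72, -0.84 and -1.02 in controls and -0.62, -0.61 and -1.06 in treated mice (difference 0.09, exact permutation p = 0.6). For heavy over light chain, mouse 3 was the lowest of its group in both groups.

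**Figure D4:**
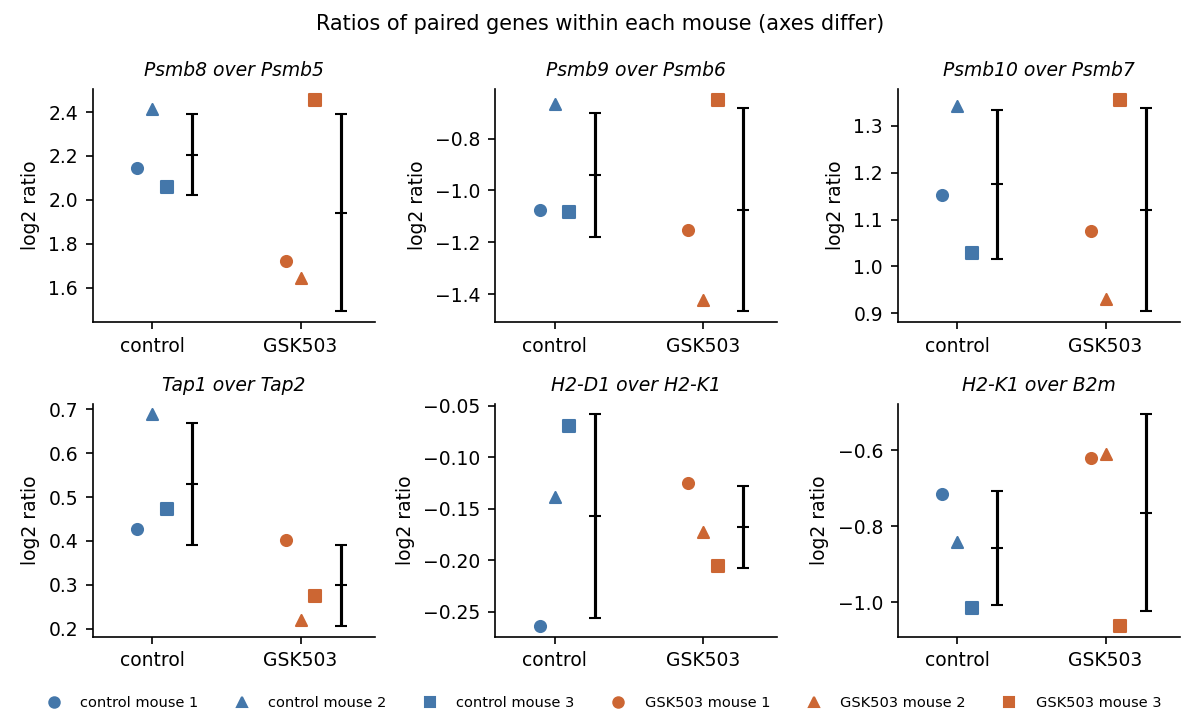
Log2 ratios of 6 gene pairs in each mouse, 1 panel per pair with its own axis; markers are mice, and the bar beside each group is the mean ± SD of 3 mice. The groups overlap in 5 panels, and in the Tap1 over Tap2 panel the treated mice (0.22 to 0.40) lie below the controls (0.43 to 0.69).

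The rest of the pathway was read from 6 lists with 74 genes, of which 70 were in the table and all 70 tested. With limma, 0 of 70 had an adjusted p below 0.05 in either direction, and limma-voom also called 0. At an unadjusted p below 0.05, 6 were higher and 8 lower, where the share of all genes was 13.3% in both directions together. The groups did not overlap for 7 genes with higher and 7 with lower values in treated mice, which is 10 percent of the 70 in each direction beside 9.84% and 9.22% of all genes. Their median log2 difference was 0.01.

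Other class I heavy chains had 5 of 15 genes above 0, a median of -0.06 and no gene at an unadjusted p below 0.05. H2-Q1 was the highest of them: it read 5.06, 2.93 and 3.07 in controls and 4.08, 5.34 and 5.49 in treated mice (log2 difference 0.45, SE 0.25, adjusted p = 0.477). H2-M2 was the lowest, at 0.716, 1.12 and 1.41 in controls and 0.551, 0.350 and 1.89 in treated mice, with a difference of -0.46. Both overlapped between groups. Summed over the 15 genes, the level lay between 235 and 285 in controls and between 241 and 279 in treated mice.

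Peptide loading and chaperone genes had a median of 0.07 with 6 of 10 above 0. At an unadjusted p below 0.05, 3 were higher and 1 lower (13.3% of all genes in both directions), and all treated mice were above all controls for 4 of 10 (9.84% of all genes): the chaperones Calr and Hspa5, the channel subunit Sec61a1 and the membrane protein Derl1, named after their values were seen. Their log2 differences were 0.20, 0.26, 0.25 and 0.11, and their adjusted p values with limma lay between 0.237 and 0.554. Sec61b, a subunit of the channel into the endoplasmic reticulum, was the highest, at 80.0, 80.9 and 64.4 in controls and 104, 99.4 and 76.7 in treated mice (log2 difference 0.31, SE 0.13, adjusted p = 0.343). Pdia3, the disulfide isomerase bound to tapasin, was the lowest, at 479, 467 and 490 in controls and 399, 438 and 418 in treated mice (log2 difference -0.19, SE 0.075, adjusted p = 0.308). The groups did not overlap for Pdia3 but did for Sec61b.

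Proteasome genes beside Psmb8 and Psmb9 lay in a narrow band. All 14 lay between -0.05 for Psma1, a structural subunit, and 0.18 for Psmb6, with a median of 0.03 and no gene at an unadjusted p below 0.05. Psmb6 read 149, 149 and 122 in controls and 169, 169 and 139 in treated mice (adjusted p = 0.505).

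Among the 6 peptidases, 3 were above 0 and 3 below. At an unadjusted p below 0.05, 1 was higher and 2 were lower (13.3% of all genes in both directions). Thop1, a cytosolic peptidase that degrades class I ligands, read 52.7, 45.9 and 50.5 in controls and 71.6, 64.4 and 56.1 in treated mice. All treated mice were above all controls, with a log2 difference of 0.36 (SE 0.10, adjusted p = 0.158). Lnpep, an aminopeptidase of endosomes, read 192, 187 and 260 in controls and 189, 157 and 154 in treated mice (log2 difference -0.34, SE 0.13, adjusted p = 0.309).

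The list of class I promoter factors had 9 of 13 genes below 0 and a median of -0.11. It also held Nfkbia, which encodes an inhibitor of kappaB-binding factors and not a factor that acts at promoters. The lower Nfkbia value in treated mice (limma, unadjusted p = 0.021) is counted below with the others. At an unadjusted p below 0.05, 4 of 13 were lower and 0 higher, where the share of all genes was 13.3% in both directions together, and for 5 of 13 (Rfx5, Nfya, Nfyb, Irf2 and Nfkbia, named after their values were seen) all treated mice lay below all controls, where the share of all genes was 9.22%. None of the 13 had an adjusted p below 0.05, and the list is described here by its counts alone. Nfya, a subunit of the NF-Y complex that binds the CCAAT letters printed above, read 23.1, 28.1 and 35.7 in controls and 17.7, 16.0 and 19.9 in treated mice. All treated mice lay below all controls, with a log2 difference of -0.67 (SE 0.16) and an adjusted p of 0.0949 with limma. It became 0.0496 when libraries were scaled by their total alone. Rfxank, a subunit of the RFX complex at the X box, was the highest of the list, at 17.3, 13.1 and 13.9 in controls and 14.0, 18.9 and 18.9 in treated mice (log2 difference 0.22, adjusted p = 0.584).

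Interferon sensing genes had 8 of 12 above 0 and a median of 0.04. At an unadjusted p below 0.05, 2 were higher and 1 was lower (13.3% of all genes in both directions). Socs1, an inhibitor of the JAK kinases, was the highest, at 1.90, 3.01 and 2.27 in controls and 4.63, 2.94 and 3.74 in treated mice (log2 difference 0.64, SE 0.26, adjusted p = 0.329). Ifng, which encodes interferon γ, was the lowest and was near the limit of detection, at 0.632, 0.226 and 0.179 in controls and 0.119, 0.0637 and 0 in treated mice (adjusted p = 0.308).

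MHC class II and interferon-stimulated genes were set beside the class I genes because they share regulators with them. None of 10 class II genes and none of 23 interferon-stimulated genes had an adjusted p below 0.05 with limma. Limma-voom called 0 of either. At an unadjusted p below 0.05 there were 0 of 10 and 2 of 23, where the share of all genes was 13.3%. Medians were -0.09 for class II and -0.03 for the interferon-stimulated genes. The summed class II level was 2178, 2357 and 1991 in controls and 1753, 1813 and 2782 in treated mice, with treated mouse 3 the highest. H2-Ob, a chain of a molecule that regulates the class II peptide loader, was the lowest class II gene. It read 0.594, 1.88 and 0.197 in controls and 0.424, 0.104 and 0.508 in treated mice.

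H2-DMb2, a chain of the class II peptide loader, was the highest of its list, at 43.7, 53.3 and 37.2 in controls and 40.7, 41.4 and 57.9 in treated mice (log2 difference 0.06, or -0.06 with libraries scaled by their total alone). Cxcl10, an interferon-induced chemokine, was the highest interferon-stimulated gene, at 0.807, 1.77 and 0.724 in controls and 1.36, 1.62 and 3.53 in treated mice (log2 difference 0.90, SE 0.43, adjusted p = 0.420). The lowest was Mx2, an antiviral GTPase, at 5.65, 7.41 and 8.29 in controls and 5.26, 4.22 and 3.58 in treated mice (log2 difference -0.69, SE 0.21, adjusted p = 0.185). Its neighbour Mx1, named after its values were seen, read 12.8, 11.2 and 8.83 in controls and 16.9, 20.1 and 21.5 in treated mice, with a log2 difference of 0.84 and an adjusted p of 0.0505. It was below 0.05 in 3 of 16 alternative fits, with adjusted p ranging from 0.0363 to 0.236 over these fits. The 2 Mx genes thus lay on opposite sides, each without overlap between the groups. They were the only such genes of the 23, 1 higher and 1 lower (4.35% each). The shares of all genes were 9.84% higher and 9.22% lower.

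**Figure D5:**
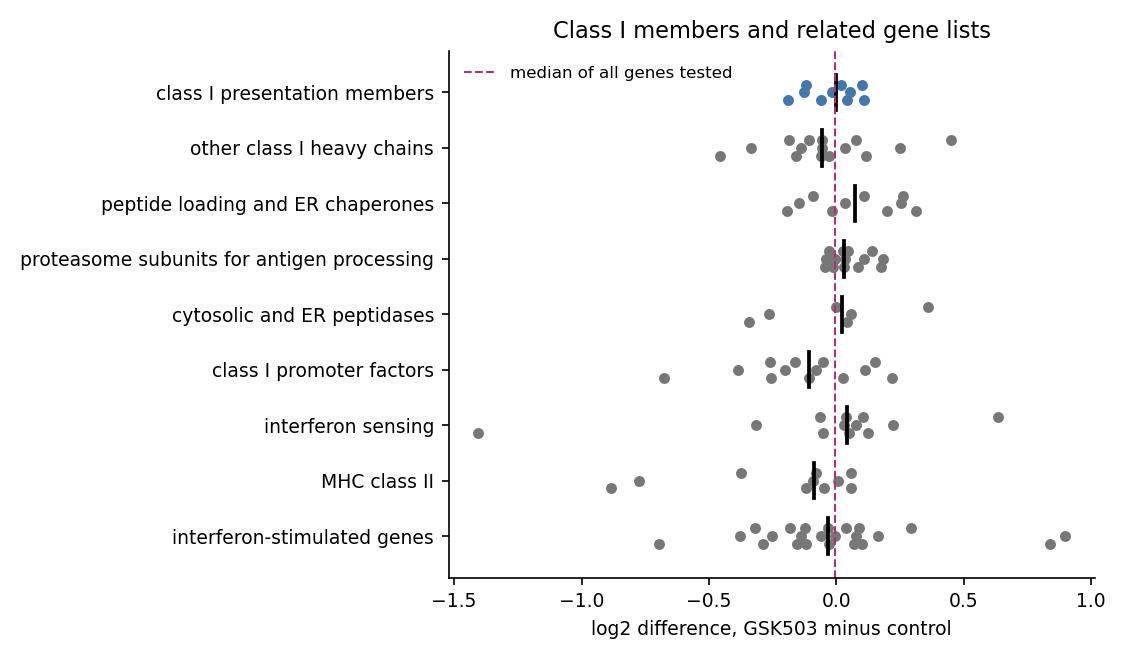
Log2 difference of each tested gene in the class I members (blue) and in 8 related lists (grey) on the deposited TMM scale; black bars are list medians and the dashed line is the median of all genes tested. The 10 members lie between -0.19 and 0.11, list medians lie between -0.11 and 0.07, and no gene shown has an adjusted p below 0.05.

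On GRCm39, chr17:34134873-35486475 spans the 7 members of the H2 complex from Tapbp to H2-D1. It held 87 tested genes, of which limma called 0. At an unadjusted p below 0.05 there were 10 of 87, where the share of all genes was 13.3%. The groups did not overlap for 14 of 87 in either direction, where the shares of all genes were 9.84% higher and 9.22% lower. The median log2 difference of the 87 was -0.00017.

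Genes with the profile nearest to the class I average were sought over the 6 mice. Among 12332 non-member genes that varied at least as much as that average, the mean absolute distance on the log2 scale was smallest for Katna1, Pop1, Snx18, Rnf146 and Nit2, between 0.031 and 0.039. The class I genes themselves lay between 0.048 (Tap2) and 0.14 (Psmb9) from their own average. Katna1, which encodes the microtubule-severing enzyme katanin, read 40.0, 45.7 and 36.3 in controls and 39.8, 39.9 and 42.4 in treated mice, with control mouse 2 the highest and control mouse 3 the lowest. This likeness over 6 libraries is a description of profile shape.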

How the data were processed

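Colonic crypt libraries of 3 control and 3 GSK503-treated mice were analysed, with groups taken from the sample labels; a further allele that all 6 mice share is not reported here. The authors aligned paired reads with STAR to GRCm39, estimated counts with RSEM, scaled them with edgeR's TMM method and deposited 1 signal value per gene and library. Between 86.2% and 88.5% of the low values were whole multiples of the library's step (tolerance 0.01). Values divided by this step served as estimated counts in limma-voom. The deposited values were not raw counts, so a count test planned for raw counts was not run. The step gave the estimated depth, and floors cover counting error only.

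Values were tested as log2(value + 0.1) with limma (version 3.58.1, R 4.3.3; lmFit and eBayes with an intensity trend) over genes of at least 0.1 in at least 3 libraries, with Benjamini-Hochberg adjustment over all of them and calls at 0.05. A log2 difference on this scale understates the change of low genes. Ratios were compared with exact permutation tests over mice. The pathway lists, the named genes (all 10 members, genes with an adjusted p below 0.05, the highest and lowest gene of each list, and the 5 nearest profiles) and the members were chosen with earlier results of these data known, and the promoter motifs after the windows had been seen. The main limma fit and limma-voom were tested on simulated data, and the other alternative fits were not. Of the listed genes, H2-M5, H2-M9, H2-M10.1 and Nrdc were not matched by name, and Rigi was read under its older symbol Ddx58. Python 3.11.15, numpy 2.4.6, pandas 2.3.3 and matplotlib 3.10.9 were used.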

Additional observations from a re-analysis of the deposited data

How the results depend on the processing

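The count of class I presentation genes called was 0 in each of the 16 alternative fits: 2 other scalings, 2 other filters, pseudocounts of 0.5 and 1, no variance trend, robust variance, limma-voom, a replicate block and each mouse left out in turn. With libraries scaled by their total alone, the log2 differences of H2-K1 (-0.0037), H2-D1 (-0.014), B2m (-0.096), Tap2 (-0.074), Psmb9 (-0.062) and H2-DMb2 (-0.058) turned below 0, 1 other pathway gene (Nfya) was called, and over all genes 82 were called higher and 178 lower in place of 83 and 24. Relative to the median of all genes, which was then -0.116, the median of the 10 members was 0.0021. Of the comparison lists, 1 gene (Mx1) was called with the filter at 1 and with robust variance.

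With a mouse left out in turn, between 0 and 1 gene of the comparison lists was called, and the difference ranged from -0.13 to 0.11 for B2m, -0.068 to 0.13 for Tap2, -0.074 to 0.036 for Tapbp, -0.12 to 0.24 for Psmb9, -0.13 to 0.011 for Psma1 and -0.11 to 0.19 for H2-DMb2; the ratio difference ranged from -0.34 to 0.042 for Psmb9 over Psmb6, -0.17 to 0.041 for Psmb10 over Psmb7 and -0.064 to 0.033 for H2-D1 over H2-K1. The cause was not tested.

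Same-numbered mice did not deviate together (r across genes of 0.032, -0.13 and -0.12). With the replicate block, 0 of 10 members were called with a smallest adjusted p of 0.657, 23 genes were called higher and 10 lower over the whole table, and the Tap1 over Tap2 difference was -0.23 (exact sign-flip p = 0.25, the smallest 3 pairs allow). Over all genes, 9 were called higher and 7 lower without the variance trend, 125 and 104 without treated mouse 3, and 21 and 9 without treated mouse 2. The intervals given are not limits of detection, and the smallest difference detectable with 3 mice in each group was not computed. Groups of 3 were too small for the test of outlying mice.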
